A study of Homo sapiens with 3 samples.

Results

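The mRNAs of KHSRP and of the factors that cut, export and load microRNAs (miRNAs) were followed in Huh7 cells, an established human hepatoma line, treated with chlorogenic acid (CA), a polyphenol of plants such as coffee. KHSRP was chosen because the study named it among the genes it followed, and 9 core processing factors were set beside it, namely LIN28B, DROSHA, DGCR8, DDX5, DDX17, XPO5, DICER1, TARBP2 and PRKRA. These 10 genes, of 19740 named on the array, were represented by 14 of 34127 gene probes, found through the RefSeq accession given for each probe. Every probe was kept apart. KHSRP was named by the study from arrays of this series, so that its direction here is not independent evidence. The study also measured KHSRP by qRT-PCR and Western blotting, and those measurements were not used here.

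The cells were left untreated or were treated with CA 50 μM or CA 100 μM for 24 h. They were a single unmodified line grown in serum-containing medium, and the study's methods give DMSO as the vehicle of its untreated controls. From each group, Cy3-labelled RNA was hybridised to a one-colour array. With 1 array in each group, no test was made, and each difference below is a difference between arrays with no replicate check.

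miRNA genes are transcribed as long primary transcripts, from which the nuclear Microprocessor, made of the nuclease DROSHA and its RNA-binding partner DGCR8, releases a hairpin. Exportin 5 (XPO5) carries the hairpin to the cytoplasm, where DICER1 removes the terminal loop with the aid of TARBP2 or PRKRA, and an Argonaute protein takes up 1 strand of the duplex. KHSRP, a KH-domain protein that also promotes decay of mRNAs with AU-rich elements, binds the terminal loop of some hairpins, let-7 among them, and favours their maturation, whereas LIN28B binds let-7 hairpins and blocks it.

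The let-7 hairpins show the region on which KHSRP and LIN28B act, and they are printed here because the array measured the mRNAs of both proteins and of let-7 host genes. The sequences are those of RefSeq (GRCh38.p14), 5′ to 3′, with the letters GGAG, a motif recognised by LIN28 proteins, in capitals where they occur between the arms.
let-7a-1 (chr9:94175957-94176036, plus strand): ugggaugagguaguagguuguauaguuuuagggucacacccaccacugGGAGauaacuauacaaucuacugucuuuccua
let-7g (chr3:52268278-52268361, minus strand): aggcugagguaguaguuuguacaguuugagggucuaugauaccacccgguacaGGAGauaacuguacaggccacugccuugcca
let-7a-3 (chr22:46112749-46112822, plus strand): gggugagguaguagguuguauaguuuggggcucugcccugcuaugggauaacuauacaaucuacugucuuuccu
let-7b (chr22:46113686-46113768, plus strand): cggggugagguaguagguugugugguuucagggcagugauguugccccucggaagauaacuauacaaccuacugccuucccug
Of 11 let-7 hairpins in the table, 10 had both arms given, and 8 of those 10 held GGAG between the arms on the transcribed strand, or 80%. Over all 739 human hairpins with both arms given, 60 did, or 8.12%. The exceptions were let-7a-3 and let-7b, which lie in the same host transcript, MIRLET7BHG, while let-7g lies in an intron of WDR82.

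The mature strands fall into the let-7 family, with the shared seed GAGGUAG, and the miR-17 family, which the study followed and which shares the seed AAAGUGC. Seeds (bases 2 to 8) are in capitals.
let-7a-5p (chr9:94175962-94175983, plus strand): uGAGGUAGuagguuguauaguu
let-7b-5p (chr22:46113691-46113712, plus strand): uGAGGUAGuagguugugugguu
let-7g-5p (chr3:52268336-52268357, minus strand): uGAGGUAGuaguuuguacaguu
miR-20a-5p (chr13:91351072-91351094, plus strand): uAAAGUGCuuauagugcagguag
miR-93-5p (chr7:100093815-100093837, minus strand): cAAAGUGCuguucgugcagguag
miR-106b-5p (chr7:100094043-100094063, minus strand): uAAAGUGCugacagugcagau
miR-20a comes from MIR17HG, and miR-93 and miR-106b from an intron of MCM7. The levels of the miRNAs themselves were not analysed here.

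The arrays had 43118 gene spots each and were scanned on 1 slide. The 75th percentile of the processed signal lay between 1059 and 1249 intensity units, and 70.4% to 71.1% of gene spots were well above background, a flag set by the scanning software. The CA 100 μM array had 2541 gene spots in disturbed areas, patches where many otherwise dim spots were bright on a single array, against 46 and 38 on the other arrays, and no member spot lay in one or carried an outlier, saturation or background flag. Of 10 hepatoma markers, 8 were well above background on every array, including AFP and ALB, while HNF4A and TF were above it on some arrays only. The untreated signals of the list ran from 9.37 to 109428. All 5 leukocyte markers, 3 of 4 endothelial and 3 of 5 fibroblast or stellate markers were also well above background on every array, at untreated signals of at most 456, 480 and 428, while KDR and DCN were above it on no array. Their part in the results was not tested. The error of printing and scanning was taken from probes printed 10 times on each array. Its median SD of the log2 ratio was 0.12 to 0.13 in the dimmest of 4 equal classes of these probes and 0.05 in the brightest. It covers neither cultures nor labelling. Signals are given below in the scanner's intensity units before scaling, so that a signal can be higher on a CA array while its log2 ratio, taken after scaling, is near 0.

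KHSRP stood above the untreated array at both doses by similar amounts. The brighter of its 2 probes (A_23_P16157) gave 8984 intensity units in untreated cells, 13331 at CA 50 μM and 13912 at CA 100 μM. After each array was scaled to its 75th percentile, the level was 1.30-fold the untreated one at CA 50 μM, a log2 ratio of 0.38 with a printing SD of 0.050, and 1.31-fold at CA 100 μM, a log2 ratio of 0.39 with a printing SD of 0.050. The untreated array was thus the low one, and the CA arrays differed from each other by a log2 ratio of 0.01, less than the printing SD of 0.048.

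A ratio of this size was not rare on these arrays. At CA 50 μM, 12.4% of all probes had a ratio as high as that of the brighter KHSRP probe, and at CA 100 μM 5.74% did. Ratios varied with brightness, however, and in the brightest of 10 equal signal classes, to which this probe belonged, the median log2 ratio was -0.13 for the lower dose and -0.08 for the higher. Within that class, 1.96% of 2247 probes at CA 50 μM and 0.404% of 2227 probes at CA 100 μM were as high as KHSRP. The KHSRP ratio lay 0.51 and 0.47 above the median of the class on the log2 scale.

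The dimmer KHSRP probe (A_24_P134235) gave 3.73 intensity units on the untreated array, which was not well above background, 36.9 at CA 50 μM and 23.5 at CA 100 μM. Before any correction, the median pixel of this spot read 62 over a local background of 28 in untreated cells, 97 over 25 at CA 50 μM and 85 over 27 at CA 100 μM. The untreated array was again the lowest. On the processed signal, and set against the lowest signal among probes well above background on the untreated array, 12.2 units, the dimmer probe was at least 2.65-fold higher in cells given CA 50 μM and at least 1.64-fold higher in those given CA 100 μM. These bounds hold for that signal only. The median spot minus local background, compared after the values were seen and with the same scaling, gave 1.86-fold and 1.45-fold, and normexp background correction gave log2 differences of 0.41 and 0.23. The direction was the same, and its size depended on the background correction. In the log2 table deposited by the authors, the difference of the dimmer probe at CA 50 μM was 2.81. On the fold scale this is close to the array fold change that the study gave for KHSRP. The ratio of the brighter probe was well below that fold change. Between the CA arrays this probe had a log2 ratio of -0.70, so that its signal was lower at CA 100 μM, in contrast to the brighter probe.

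Appearance above background was not particular to KHSRP. Of 10924 single-spot probes not well above background in untreated cells, 322 were well above it on both CA arrays, or 2.95%, and 346 probes were above it in untreated cells only. Of the 322 probes, 2.17% were as bright as the dimmer KHSRP probe at CA 50 μM. For 80 named genes, KHSRP included, such a probe could be set beside another probe of the gene that was above background on all 3 arrays. The log2 ratio of that other probe had a median of 0.0074 for the lower dose and -0.06 for the higher. It was as high as in KHSRP in 16 of the 80 genes for the lower dose, in 2 for the higher and in 1, KHSRP itself, for both. KHSRP set the value compared and is counted each time by definition. The 80 genes were also chosen through a probe high on both CA arrays, so that these counts are a description and do not single out KHSRP. In the window of 114 gene spots around the dimmer KHSRP spot, 30 spots were not well above background on the untreated array. Of these, the KHSRP spot was the only one above it on both CA arrays. The window was centred on that spot, which is counted by definition, and the share over the array was 2.95%, so that this count does not single out KHSRP either.

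**Figure D1:**
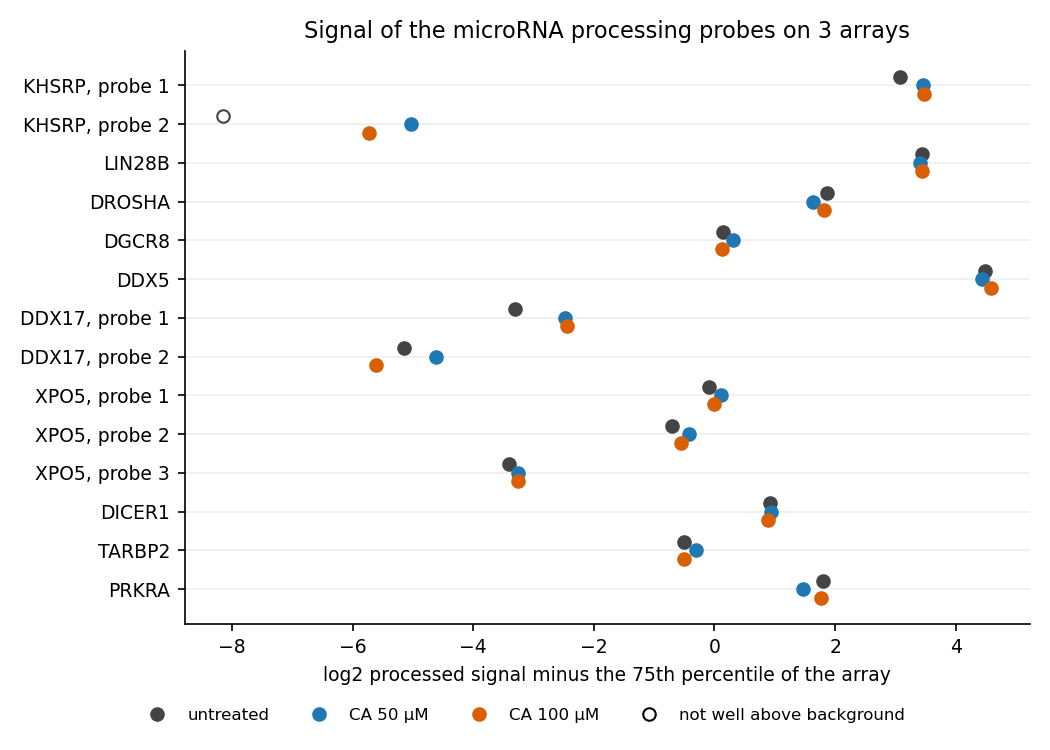
Level of each of the 14 probes on the untreated (grey), CA 50 μM (blue) and CA 100 μM (orange) arrays, as log2 processed signal minus the 75th percentile of the array, with probes of a gene numbered from bright to dim and an open circle for a spot not well above background. Both KHSRP probes lie lowest on the untreated array, while most other members shift little between arrays.

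LIN28B, the let-7 inhibitor, was measured well above background in these hepatoma cells, whereas its paralog LIN28A was above background on no array. The LIN28B probe gave 11466 units in untreated cells, 12891 at CA 50 μM and 13580 at CA 100 μM. Its log2 ratios of -0.02 and 0.01 were within the printing SD of 0.050, and no direction is assigned because the sign at CA 50 μM turned under 4 of 7 processing alternatives, which ranged from -0.07 to 0.21. KHSRP and LIN28B act on the same hairpins in opposite senses. Both were in the brightest signal class, and the KHSRP ratio was higher at both doses.

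The Microprocessor subunits differed little. DROSHA, which cuts the primary transcript, gave 3879 units in untreated cells, 3741 at CA 50 μM and 4419 at CA 100 μM. Its scaled level was 0.846-fold the untreated one at CA 50 μM, a log2 ratio of -0.24, and near it at CA 100 μM, with -0.05. The signal of DGCR8, which anchors the primary transcript, was 1161 units in untreated cells, 1498 for CA 50 μM and 1356 for CA 100 μM. The log2 ratio of DGCR8 was 0.18 at CA 50 μM with a printing SD of 0.055, and -0.01 at CA 100 μM. The partners thus differed in opposite directions at CA 50 μM, by more than 2 printing SDs each, and by about 1 printing SD or less at CA 100 μM.

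DDX5 and DDX17 are paralogous RNA helicases that join the Microprocessor for a subset of primary transcripts. DDX5 gave 23631 units in untreated cells, 26221 at CA 50 μM and 30112 at CA 100 μM, with log2 ratios of -0.04 and 0.11. The sign at CA 50 μM depended on the normalization, with a range from -0.09 to 0.11, and the ratio at CA 100 μM was positive under each alternative, from 0.09 to 0.22.

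DDX17 had the highest ratio among the 13 member probes measured on all arrays, and its probes disagreed at CA 100 μM. The brighter DDX17 probe (A_23_P218784) gave 107 units in untreated cells, 218 at CA 50 μM and 230 at CA 100 μM. This was 1.78-fold and 1.82-fold the untreated level after scaling, with log2 ratios of 0.83 and 0.86 and printing SDs of 0.12 and 0.13. Of all probes, 1.42% were as high for CA 50 μM and 1.01% for CA 100 μM. The dimmer DDX17 probe (A_23_P57534) gave 29.8 units in untreated cells, 48.9 at CA 50 μM and 25.5 at CA 100 μM, with log2 ratios of 0.52 and -0.46. Under normexp these were 0.16 and -0.13, the latter within the printing SD of 0.13. Both probes were thus higher at CA 50 μM, while at CA 100 μM one was above and the other below the untreated array, 1.33 apart on the log2 scale. Of 3237 genes with at least 2 measured probes, 0.649% had probes as far apart at CA 100 μM, and of the 810 of these genes as dim as DDX17, 2.10% did. Whether the DDX17 probes read the same transcripts was not tested.

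XPO5, the export receptor of the hairpins, had 3 probes, all higher on both CA arrays than on the untreated array. The brightest gave 999 units in untreated cells, 1295 for CA 50 μM and 1236 for CA 100 μM. The second gave 652, 899 and 852 units on the same arrays, and the dimmest 100.3, 126 and 130.4 units. Log2 ratios were 0.19, 0.27 and 0.14 at CA 50 μM and 0.07, 0.15 and 0.14 at CA 100 μM, from the brightest probe to the dimmest. The probes lay within 0.14 of each other for the lower dose and 0.08 for the higher, closer than the median range of 0.25 and 0.20 over all genes with several probes. Only the ratios of the brightest and second probes at CA 50 μM and of the second at CA 100 μM exceeded 2 printing SDs.

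DICER1, the nuclease that removes the loop, gave 2000 units in untreated cells, 2300 at CA 50 μM and 2309 at CA 100 μM. Its log2 ratios of 0.01 and -0.03 were within the printing SD and changed sign under normexp background correction or another centring. The partners of DICER1 differed more at CA 50 μM than at CA 100 μM. TARBP2 gave 746 units in untreated cells, 979 at CA 50 μM and 881 at CA 100 μM, a log2 ratio of 0.20 at CA 50 μM, while its log2 ratio at CA 100 μM was 0.0018. PRKRA, the other double-stranded RNA-binding partner, gave 3675 units in untreated cells, 3345 at CA 50 μM and 4267 at CA 100 μM. PRKRA was 0.798-fold the untreated level at CA 50 μM, a log2 ratio of -0.33 that 10.1% of all probes reached or passed downwards, and had a log2 ratio of -0.02 at CA 100 μM. The CA 50 μM array was thus the high one for TARBP2 and the low one for PRKRA.

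**Figure D2:**
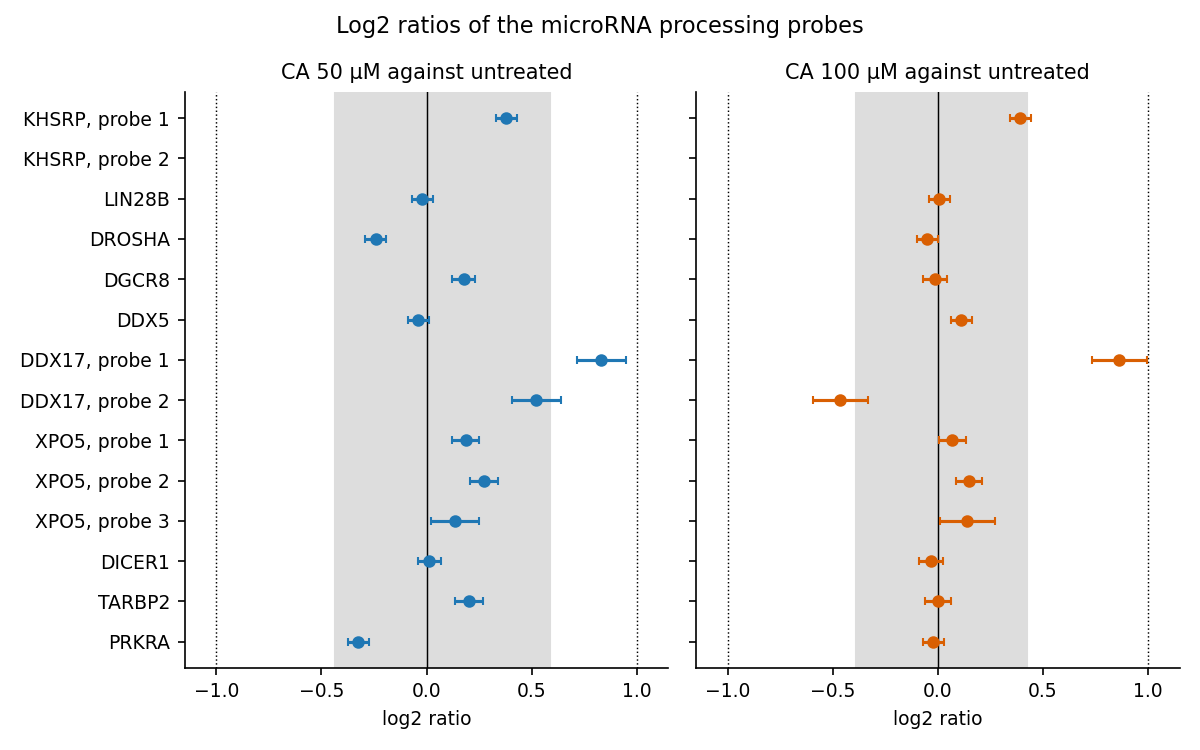
Log2 ratio of each member probe at CA 50 μM (left) and CA 100 μM (right) against the untreated array, with error bars of 1 printing SD, the range from the 5th to the 95th percentile of all probes in grey and 2-fold limits dotted; the dimmer KHSRP probe has only a bound and is not drawn. The brighter DDX17 probe lies outside the grey range at both doses, and the brighter KHSRP probe lies inside it at 0.38 and 0.39. The dimmer DDX17 probe lies below the range at CA 100 μM, with -0.46. In the brightest signal class, which holds the brighter KHSRP probe, the 95th percentiles were lower, 0.23 and 0.13.

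Counted together, and without the dimmer KHSRP probe, which has only a bound, none of the 13 member probes measured on both arrays was 2-fold higher or lower at either dose. Over all probes, 0.614% were at least 2-fold higher and 0.458% at least 2-fold lower at CA 50 μM, and 0.638% and 0.256% at CA 100 μM. These splits moved with the processing, to 0.449% and 0.525% at CA 50 μM in the log2 table deposited by the authors, and to 0.229% and 0.263% at CA 100 μM without disturbed areas. With a smaller limit of 1.25-fold, chosen after the values were seen, 3 member probes were higher at CA 50 μM (KHSRP and both DDX17 probes) against 15.5% of all probes, and 1 was lower (PRKRA) against 10.2%. At CA 100 μM, 2 were higher (KHSRP and the brighter DDX17 probe) against 8.24%, and 1 was lower (the dimmer DDX17 probe) against 7.83%. These counts, out of 13 member probes, are small, and no difference from the shares of all probes is read from them. Of the 3 probes higher at CA 50 μM, 2 belonged to the same gene, DDX17.

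Printing error alone was passed by many probes. At CA 50 μM, 9 of the 13 member probes lay beyond 2 printing SDs from 0, against 57.5% of all probes, and at CA 100 μM 5 did, against 42.5%. By the brightest probe of each gene, 6 members were above 0 and 4 below at each dose. Of all genes, 43.7% were above 0 for the lower dose and 42.3% for the higher. The members above 0 differed between the doses. DGCR8 and DICER1 were above it for the lower dose only, and LIN28B and DDX5 for the higher only. DICER1 for the lower dose, and LIN28B and TARBP2 for the higher, were above 0 by less than the printing SD. Their signs turned under at least 1 processing alternative, so that no direction is read from this split. The 10 genes had a median log2 ratio of 0.09 for the lower dose and 0.0039 for the higher, beside -0.04 over 14700 genes and -0.03 over 14640 genes. Both comparisons share the untreated array.

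When the CA arrays were set against each other, the members fell on either side of 0 and none was 2-fold higher or lower, against 0.681% and 0.174% of all probes. PRKRA had a log2 ratio of 0.30 for CA 100 μM over CA 50 μM, DROSHA 0.19 and DDX5 0.15. TARBP2 had -0.20, DGCR8 -0.19, and the brightest XPO5 probe -0.12. At the limit of 1.25-fold none was higher, against 4.79% of all probes, and 2 were lower, namely the dimmer probes of KHSRP and DDX17, against 11.5%. Of the 14 probes, 9 lay beyond 2 printing SDs, against 45.6% of all probes.

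**Figure D3:**
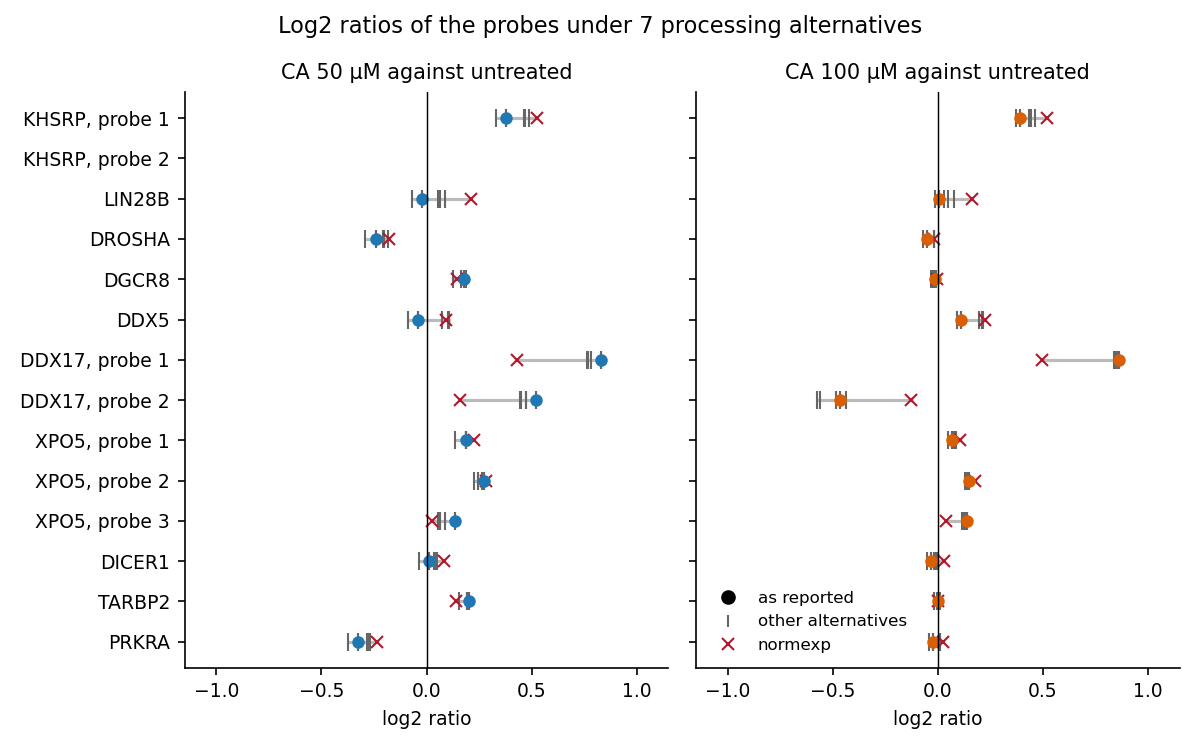
Log2 ratio of each member probe at CA 50 μM (left) and CA 100 μM (right) against untreated as reported (filled circles), under normexp background correction (red crosses) and under the other 6 processing alternatives (ticks), joined by a grey line. KHSRP stayed between 0.33 and 0.53 at CA 50 μM and between 0.37 and 0.52 at CA 100 μM, and the DDX17 probes moved most under normexp.

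The 5 genes whose pattern over the 3 arrays was most like that of the brighter KHSRP probe were SOX6, REL, BICRAL, CDK5 and ADH6. Likeness was the Euclidean distance of the log2 ratios at CA 50 μM and CA 100 μM over 14539 genes, and these distances were 0.014, 0.022, 0.022, 0.023 and 0.026. The SOX6 spot lay in a disturbed area of the CA 100 μM array. In all, 131 of the 14539 genes lay within 0.1 of KHSRP, or 0.901%. Of the related genes described next, the nearest were WDR82 at 0.11, ELAVL1 at 0.14 and MOV10 at 0.15.

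The members were then set beside 121 further genes in 8 lists of proteins and transcripts that act with them, each gene given by its brightest probe above background. Of these genes 116 were measured at both doses, and none was 2-fold higher or lower at either dose, beside 0.456% higher and 0.517% lower at CA 50 μM and 0.451% and 0.205% at CA 100 μM of all genes measured. At least 1.25-fold higher were 12 genes at CA 50 μM and 2 at CA 100 μM, against 13.1% and 5.91% of all genes, and lower were 8 and 2, against 10.5% and 6.8%. Their median log2 ratio was -0.04 and -0.02, next to -0.04 and -0.03 over all genes. The list medians given below were small. The sign of each turned under at least 1 of 9 processing alternatives at 1 or both doses, so that no direction is assigned to a list. CNOT6, DLEU2 and MIR210HG had no named probe.

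The list closest to KHSRP in kind held 14 genes, all but YWHAZ for binders of AU-rich elements or proteins with KH domains. It had a median log2 ratio of 0.07 for the lower dose and -0.01 for the higher, the latter with a sign that turned under 5 of 9 alternatives. The highest at CA 50 μM was ELAVL1 (HuR), which stabilises AU-rich mRNAs, with 1154 units in untreated cells, 1730 at CA 50 μM and 1625 at CA 100 μM, with log2 ratios of 0.40 and 0.26. The lowest was HNRNPK with -0.25, where a second probe gave 0.29. At CA 100 μM, HNRNPAB was highest with 0.29 and TIA1 lowest with -0.18, beside 0.06 from its other probe. FUBP1, a paralog of KHSRP, gave 1342 units in untreated cells, 1800 at CA 50 μM and 1871 at CA 100 μM, with log2 ratios of 0.23 and 0.24, and a second probe gave 0.53 and 0.25. FUBP1 was named here after its values were seen, for its kinship with KHSRP.

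The 16 Microprocessor cofactors had a median of -0.05 and -0.06, with a sign that turned under 4 of 9 alternatives at each dose. TARDBP was lowest at CA 50 μM with -0.39, though its other probes gave -0.03 and 0.03. At CA 100 μM, the editing enzyme ADAR was highest with 0.23 and HNRNPA1 lowest with -0.21. Among 4 genes of nuclear export, which included the separate export receptor XPO1, RCC1 was highest with 0.37 and 0.16. RCC1 is the exchange factor that loads RAN with GTP. RAN itself had -0.28 and -0.18, while a second RAN probe gave 0.04 and 0.07.

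Of 13 genes linked to the tailing or decay of let-7 precursors and miRNAs, 12 were measured, with a median of -0.02 and -0.03. The list included LIN28A and TRIM71, which are not themselves tailing or decay enzymes. DIS3L2, the exonuclease that degrades tailed let-7 precursors, was highest at both doses, with 159 units in untreated cells, 305 at CA 50 μM and 224 at CA 100 μM, with log2 ratios of 0.75 and 0.26. A dimmer DIS3L2 probe gave 0.91 and 0.70. ZSWIM8, which serves target-directed miRNA decay, was lowest with -0.45 and -0.29. The CA 100 μM value of both lay between those of the untreated and CA 50 μM arrays.

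The 19 genes of the RNA-induced silencing complex and its loading had a median of -0.0089 for the lower dose and -0.07 for the higher. The sign at the lower dose turned under 5 of 9 alternatives. TNRC6A, the scaffold that links Argonaute to deadenylation, was highest at CA 50 μM, with 1476 units in untreated cells, 3138 at CA 50 μM and 2009 at CA 100 μM, with log2 ratios of 0.90 and 0.21. The import factor IPO8 was lowest with -0.56. At CA 100 μM the helicase MOV10 was highest with 0.25, and the chaperone HSP90AA1 lowest with -0.34, where another probe printed 10 times gave 0.11. The Argonaute genes, named for their role after their values were seen, had log2 ratios of -0.30 for AGO1, -0.05 for AGO2, -0.12 for AGO3 and -0.29 for AGO4 at CA 50 μM, and between -0.13 and -0.01 at CA 100 μM.

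In the 19 measured genes of deadenylation and decapping the median was -0.09 and -0.02. EDC3 was highest at CA 50 μM with 0.35 and CNOT1 at CA 100 μM with 0.26, and the exonuclease XRN1 was lowest at both with -0.46 and -0.31. The list of the RNA exosome, which KHSRP recruits to AU-rich mRNAs, held 13 genes. It included the cofactor genes SKIC2 and SKIC3, which are not exosome subunits, and had a median of 0.04 and 0.07. EXOSC6 was highest with 0.92 and 0.42, on a dim probe with 30.8 units in untreated cells, 66.2 at CA 50 μM and 48.6 at CA 100 μM. EXOSC2 was lowest with -0.37 and -0.07, where its other probe gave 0.04 and 0.00038.

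The host transcripts link the sequences above to the arrays. Of 22 listed, 19 were measured, with a median of -0.08 and -0.03. MIRLET7BHG, host of let-7a-3 and let-7b, had the highest ratio at both doses and also probes that disagreed. One probe gave 43.2 units in untreated cells, 90.9 at CA 50 μM and 72.3 at CA 100 μM, with log2 ratios of 0.88 and 0.51, and the other 48.0, 44.3 and 37.7 units, with -0.30 and -0.58. No direction is assigned to this transcript. WDR82, host of let-7g, was printed 10 times and gave 1006 units in untreated cells, 1433 at CA 50 μM and 1459 at CA 100 μM. Its log2 ratios of 0.32 and 0.30 had spot SDs of 0.05 each, and 2 of its spots lay in disturbed areas at CA 100 μM, without which the ratio was 0.30.

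MCM7, host of miR-93 and miR-106b, gave 15549 units in untreated cells, 19126 at CA 50 μM and 18134 at CA 100 μM, with log2 ratios of 0.11 and -0.02. A dimmer MCM7 probe gave 0.68 and 0.64. MIR17HG, host of miR-20a, gave 12.6 units in untreated cells, 14.2 at CA 50 μM and 11.8 at CA 100 μM. It was well above background at CA 50 μM only, so that no ratio was formed. VMP1 was lowest at CA 50 μM with -0.38, and CTDSP1 at CA 100 μM with -0.50 from a spot in a disturbed area. A dimmer CTDSP1 probe outside such areas gave 0.30 at CA 100 μM. WDR82, MCM7 and MIR17HG were described for the miRNAs they carry, after their values were seen.

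Dim probes tended to give higher ratios than bright ones of the same gene. Over 3266 genes with several probes, the dimmest probe had a higher ratio than the brightest in 69.3% at CA 50 μM, and over 3237 genes in 70.8% at CA 100 μM. The medians of the difference were 0.15 and 0.12 on the log2 scale. The dim second probes of MCM7, DIS3L2 and MOV10 exceeded the brighter ones at both doses, whereas the dimmer DDX17 probe lay below its brighter one. On the processed signal the bounds of the dimmer KHSRP probe, 2.65-fold and 1.64-fold, exceeded the 1.30-fold and 1.31-fold of the brighter probe. Under normexp its log2 differences of 0.41 and 0.23 lay below the 0.53 and 0.52 of the brighter probe. The part of brightness in the ratios of the dim probes was not tested.

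**Figure D4:**
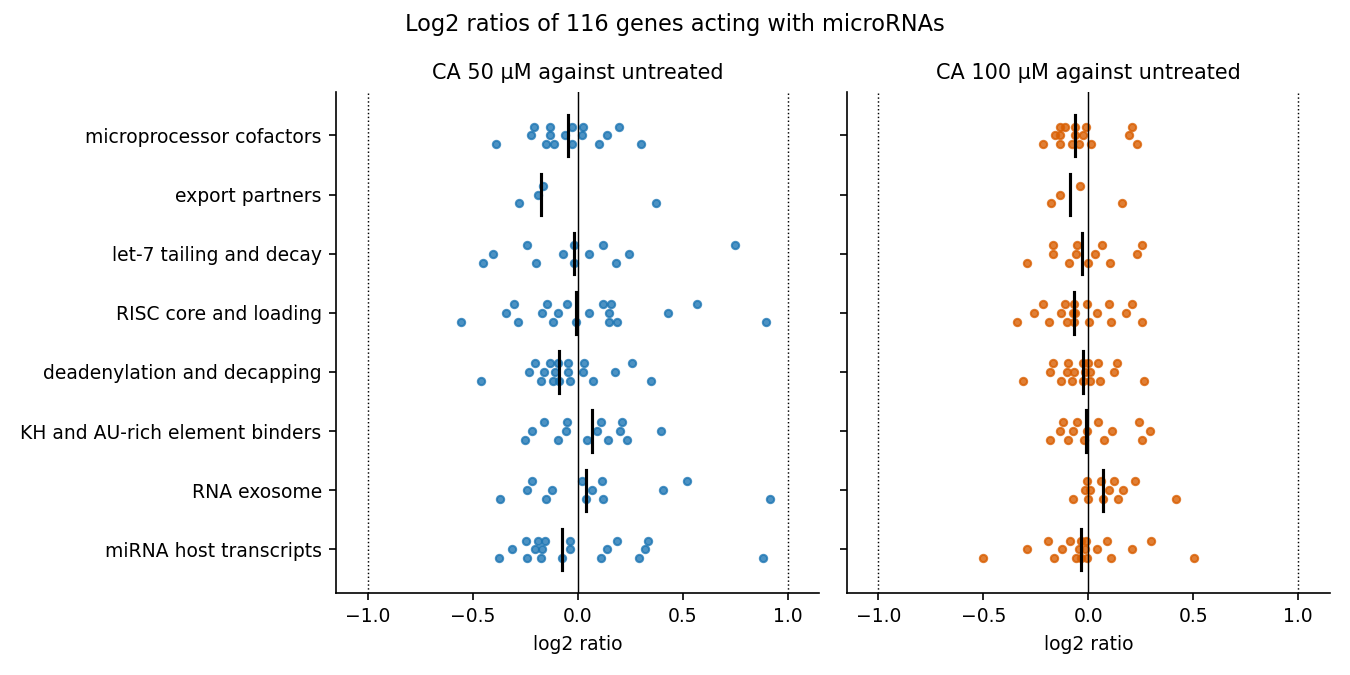
Log2 ratio at CA 50 μM (left, blue) and CA 100 μM (right, orange) against untreated of 116 genes in 8 lists, each point a gene by its brightest probe above background, each bar a list median, with 2-fold limits dotted. No gene reaches 2-fold, and the list medians lie between -0.18 and 0.07 at CA 50 μM and between -0.09 and 0.07 at CA 100 μM. The signs of the list medians depended on the processing.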

How the data were processed

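The authors extracted the scanned Huh7 arrays with Agilent Feature Extraction 11.0.1.1, per the labels, and deposited spot intensity values that were background-subtracted, detrended and not scaled between arrays, with median spot and local background intensities. They also deposited a table of log2 values whose method is not given in the sources used here, and this was an alternative only. Processed signals were taken as log2 minus each array's 75th percentile over gene spots without an outlier flag. Spots of a probe were averaged on the log2 scale. Of 34127 probes, 25771 (75.5%) were named through RefSeq (GRCh38.p14). No array coordinates are given, because the design was annotated on GRCh37. Ratios needed a signal well above background on both arrays, in at least 50% of a probe's spots. Probes above it on 1 array were given as bounds. The array number limits the precision. The members, the gene lists and the limits were chosen with earlier results of these data known. The text names all members, and of each list the genes with the highest and lowest ratio at each dose, with additions marked in the text and 1 gene not reported here. Windows of 17 rows and 7 columns of spots were called disturbed when at least 5 spots, and 25% of those dim elsewhere, were brighter by at least 4-fold on 1 array. Alternatives included cyclic loess, quantile normalization, the median as centre, normexp (offset 50) on median intensities, the deposited log2 table, leaving out disturbed areas, leaving out saturated spots and background flags, 2 other filters on dim probes and the mean over probes of a gene. The median spot minus local background was compared after the values were seen. The 2-fold rule and the printing SD were checked on simulated arrays, with changes larger than 2-fold and the same error at every signal. The windows, bounds, signal classes and alternatives were not checked in this way. The tools were limma 3.58.1 in R 4.3.3, and numpy 2.4.6 and pandas 2.3.3 in Python 3.11.15. Arrays of MIHA cells and miRNA arrays that the study describes were not used here.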

Additional observations from a re-analysis of the deposited data

Results flagged for a closer look

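The dimmer DDX17 probe (A_23_P57534) stood out because its log2 ratios to the untreated array had opposite signs at the 2 doses, 0.52 for CA 50 μM but -0.46 for CA 100 μM. Under normexp the ratios were 0.16 and -0.13, the latter within the printing SD of 0.13. The median spot minus local background read 60 in untreated cells, 84 for CA 50 μM and 58.5 for CA 100 μM. The difference between the doses was not tested, since each dose had 1 array.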

How the results depend on the processing

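No paired analysis was possible because each group had 1 array, and no array could be left out. Of 280 values of member probes recomputed under 7 alternatives, 245 moved by less than the printing SD, 35 moved further and 26 changed sign, all of the latter in ratios near 0. Normexp accounted for 18 of the 35. The brighter KHSRP probe stayed above 0 throughout. At CA 50 μM its log2 ratio was 0.47 under quantile normalization, 0.49 under cyclic loess, 0.53 under normexp and 0.46 in the deposited table, and at CA 100 μM it was 0.46 under cyclic loess and 0.52 under normexp. The bound of the dimmer KHSRP probe rests on a floor. Its measured log2 difference at CA 50 μM was 3.12 as processed, 2.81 in the deposited table and 0.41 under normexp with its offset of 50. The count of member probes at least 2-fold higher was 1 at each dose, the dimmer KHSRP probe, with no filter on dim probes or with a filter on 1 of the 2 arrays. The count at least 2-fold lower at CA 100 μM against CA 50 μM was 1 under quantile normalization and in the deposited table, the dimmer DDX17 probe. The median of the wider lists at CA 50 μM was 0.023 under cyclic loess, 0.032 under normexp and 0.021 with the mean over probes, the member median at CA 100 μM was 0.067 under normexp, and the member median of CA 100 μM against CA 50 μM was -0.061 with the mean over probes. Over all probes the shares 2-fold higher and lower were also near even under quantile normalization at CA 50 μM, with 0.449% and 0.538%. Without replicates, the spread between cultures is unknown.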
